A study of Homo sapiens with 4 samples.

Results

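ZFAS1, GAS5 and 8 members of the SNHG series (SNHG1, SNHG5, SNHG6, SNHG7, SNHG8, SNHG12, SNHG15 and SNHG16) are noncoding genes whose introns carry small nucleolar RNAs (snoRNAs). Their levels were examined in RNA recovered with streptavidin beads in a miRNA pull out assay from DU-145, a human prostate cancer cell line. The genes were taken by name, as every RefSeq transcript record of these 10 symbols. They are 10 of 24763 named genes with a record and hold 21 of 53209 transcript records. The genes were selected on the FPKM difference between the arms of this experiment, which was known when their names were put forward, so the members' differences are given as a description and support nothing.

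The assay had 4 libraries in 2 arms of 2. In the control arm, miR-28CT, DU-145 cells were transfected with 60 nM of an untagged miR-28-5p duplex, and the RNA held by the beads is background. In the other arm, miR-28BIO, the same concentration of a mixture of duplexes was used, which carried biotin at the 3′ end and a thiouridine at nucleotide 8 or 18 of miR-28-5p. All cells, controls included, received miR-28-5p and were exposed to ultraviolet light of 365 nm 24 hours after transfection, and no library of untransfected cells or of RNA before the pull out was analysed here. Each arm is a pull out from 1 cell line, and a level below is the amount in the recovered RNA, not in the cell. The comparison asks which RNAs the tagged miRNA recovered above the control pull out. In bulk RNA, fewer cells with a transcript and less of it per cell cannot be told apart.

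Values are FPKM (fragments scaled to transcript length and library size), which allow levels to be compared between genes of unequal length. They were divided by 1 factor per library, 0.850 to 1.09, and summed over the records of a gene (scaled FPKM). The depth behind the FPKM was estimated from the deposited coverage and ranged from 12.99 to 17.9 M reads per library (M, 1e+06). The gene sums of the 10 hosts rested on an estimated 61.1 to 3378 reads. The epithelial markers KRT8, KRT18, KRT19, EPCAM and CDH1 and the mesenchymal marker VIM all passed the filter on low values. These 6 markers had a median log2 difference between the arms (miR-28BIO minus miR-28CT) of -0.72. It was -0.08 over all genes tested and -0.35 over those with a mean of at least 10 scaled FPKM. Within both replicates 5 of the markers were lower in miR-28BIO, as were 39.7% of all genes, and CDH1 was higher. None of 7 markers of blood, stromal, endothelial or liver cells passed the filter.

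A snoRNA is cut from the intron of its host after splicing and then joins a protein complex, the snoRNP. C/D box snoRNAs guide ribose methylation, and H/ACA box snoRNAs guide pseudouridylation, mainly of ribosomal RNA. The spliced host RNA that is left is exported and associates with ribosomes, and for several hosts, GAS5 among them, it is known to be degraded by nonsense-mediated decay (NMD). Many hosts belong to the 5′ terminal oligopyrimidine class, in which transcription starts in a run of C and T, as it does in ribosomal protein genes.

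The start sites are shown because that run of pyrimidines is a feature of the hosts that the choice of genes did not use. Each line holds 30 bases of hg38 in the direction of transcription, 15 before the deposited start of the most abundant record and 15 from it, and the capitals mark the longest run of C or T that reaches to within 10 bases of the start.
ZFAS1: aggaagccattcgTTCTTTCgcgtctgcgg
GAS5: ggcaccatactgTCTTTTCgaggtaggagt
SNHG1: tccccggggagattcgttctcaTTTTTCTa
SNHG5: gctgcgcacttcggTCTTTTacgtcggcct
SNHG7: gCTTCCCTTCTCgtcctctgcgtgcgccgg
SNHG8: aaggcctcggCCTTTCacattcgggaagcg
SNHG12: TCTCCCCgccgcattcccggtgtcgactta
SNHG15: ggtgcgcggcgcagcgcgcggcgTCagtct
SNHG16: cgcaggggcggtctcgcgTTCTTTTCgagg

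In ZFAS1 (chr20:49278627-49278656, plus strand), GAS5 (chr1:173867973-173868002, minus strand), SNHG5 (chr6:85678719-85678748, minus strand) and SNHG8 (chr4:118278747-118278776, plus strand) the run spans the deposited start itself. In SNHG1 (chr11:62855874-62855903, minus strand), SNHG16 (chr17:76557749-76557778, plus strand) and SNHG15 (chr7:44986646-44986675, minus strand) it lies after the start, and in SNHG7 (chr9:136728170-136728199, minus strand) and SNHG12 (chr1:28581840-28581869, minus strand) before it. A run of 6 or more was present in 8 of these 9 windows and in 31.1% of 35108 other RefSeq promoters over the same window. For a run of 5 or more the shares were the same 8 of 9 and 47.5%, and for 8 or more they were 2 of 9 and 13.7%. The median longest run was 7 bases in the hosts and 4 bases in the other promoters. SNHG15 was the exception, with a run of 2 bases. No window is shown for SNHG6.

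All 10 hosts passed the filter and were among the more abundant RNAs on the beads, since 78.5% to 97.9% of the 11311 genes tested had a lower mean scaled FPKM. In the control pull out, ZFAS1 had the highest mean, 146.6 ± 21.97 scaled FPKM (SD, n = 2), and SNHG12 the lowest, 13.8 ± 11.9 (SD, n = 2). In the miR-28BIO pull out, SNHG16 led with 74.5 ± 18.0 (SD, n = 2) and SNHG12 was again last with 8.71 ± 0.954 (SD, n = 2). In both arms the ranges of neighbours in the order of levels overlapped, except for SNHG8 and SNHG12. SNHG16 moved from the seventh place in miR-28CT to the first in miR-28BIO, and ZFAS1 from the first place to the fourth.

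**Figure D1:**
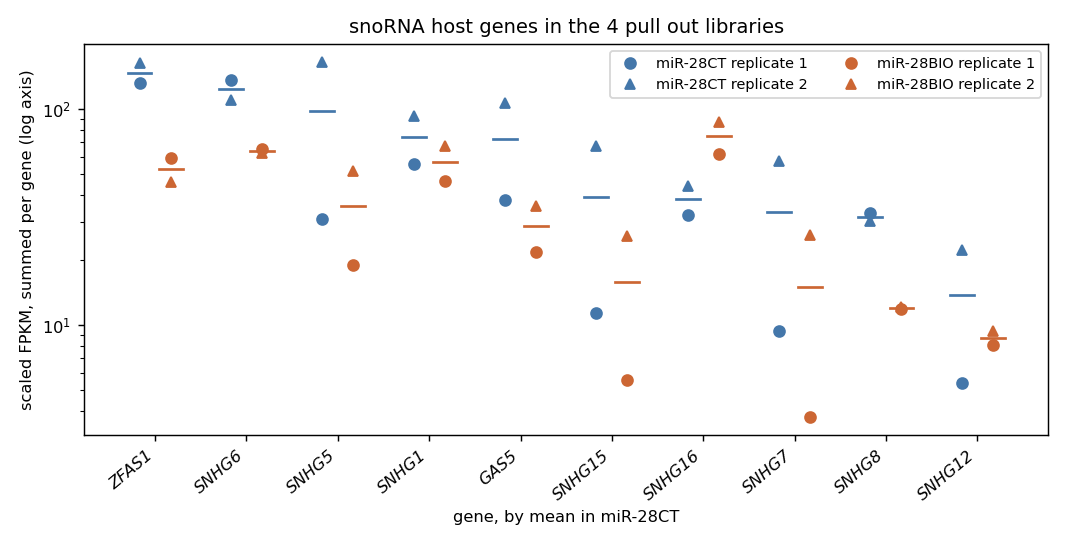
Scaled FPKM summed per gene (log axis) of the 10 snoRNA host genes, ordered by their mean in miR-28CT; circles are replicate 1, triangles replicate 2, and short lines the mean of an arm (n = 2). ZFAS1, GAS5, SNHG6 and SNHG8 have both miR-28BIO points below both miR-28CT points, SNHG16 has them above, and the other 5 overlap.

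In the comparison of the arms, both miR-28BIO libraries lay below both miR-28CT libraries for 4 hosts, ZFAS1, GAS5, SNHG6 and SNHG8, and 12.7% of all genes tested did the same. Both miR-28BIO libraries lay above both controls for 1 host, SNHG16, as for 12.3% of all genes. The other 5 hosts overlapped. For 2 against 2 libraries, the exact permutation test of 1 gene cannot give a two-sided p below 0.333. In the limma fit across all genes, 0 of the 10 hosts had an adjusted p below 0.05, where 0.0265% of all genes were called lower and 0% higher. With the replicate number as a block, a pairing that 2 pairs cannot settle, 0.566% of all genes were called, and again 0 of the 10 hosts, whose smallest limma adjusted p was then 0.0687.

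ZFAS1, the host of SNORD12, SNORD12B and SNORD12C, lies at chr20:49278178-49289258 on the plus strand, next to the promoter of ZNFX1. It measured 131.1 and 162.1 scaled FPKM in miR-28CT and 59.2 and 45.8 in miR-28BIO, here and below in the order replicate 1, replicate 2. Both tagged pull outs were low, and the 2 libraries of each arm were close to each other. The mean of the controls was 2.79-fold that of miR-28BIO, with a log2 difference (miR-28BIO minus miR-28CT) of -1.48 ± 0.54 (SE, limma). With the most abundant transcript alone the log2 difference was -1.09.

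GAS5, named for its accumulation in growth-arrested cells, carries 10 of the C/D box snoRNA records and lies at chr1:173863901-173867987 on the minus strand. It measured 37.6 and 106.7 scaled FPKM in miR-28CT and 21.6 and 35.5 in miR-28BIO. The arms did not overlap, but miR-28CT replicate 1 and miR-28BIO replicate 2 were nearly equal, and replicate 2 was the higher library in each arm. The log2 difference was -1.19 ± 0.75 (SE, limma), -0.80 within replicate 1 and -1.58 within replicate 2. It was -0.42 without miR-28CT replicate 2 and -1.91 without miR-28CT replicate 1.

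SNHG1 (chr11:62851988-62855888, minus strand), the host of SNORD22 and of SNORD25 to SNORD31, measured 55.7 and 92.5 scaled FPKM in miR-28CT and 46.1 and 67.1 in miR-28BIO. Its arms overlapped, and its log2 difference was -0.37 ± 0.59 (SE, limma), with -0.27 within replicate 1, -0.46 within replicate 2 and 0.023 without miR-28CT replicate 2. SNHG5 (chr6:85677007-85678733, minus strand), the host of SNORD50A and SNORD50B, measured 30.8 and 165.0 scaled FPKM in miR-28CT and 18.9 and 51.6 in miR-28BIO. The high value was miR-28CT replicate 2 alone, 5.36-fold its partner, and the arms overlapped. The log2 difference of SNHG5 was -1.19 ± 1.09 (SE, limma), and 0.045 without miR-28CT replicate 2.

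SNHG6 (chr8:66921930-66925542, minus strand) hosts SNORD87 and measured 136.4 and 110.0 scaled FPKM in miR-28CT and 65.0 and 62.2 in miR-28BIO. The miR-28BIO libraries were both low and nearly equal. The log2 difference was -0.95 ± 0.53 (SE, limma), with -1.07 within replicate 1 and -0.82 within replicate 2.

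SNHG16 (chr17:76557764-76565348, plus strand), the host of SNORD1A, SNORD1B and SNORD1C, was the one host with a higher estimate in the tagged arm. It measured 32.3 and 43.9 scaled FPKM in miR-28CT and 61.8 and 87.2 in miR-28BIO. Both miR-28BIO libraries lay above both controls, with a 1.95-fold higher mean. The log2 difference was 0.96 ± 0.53 (SE, limma), and it was 0.93 within replicate 1 and 0.99 within replicate 2.

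The other 4 hosts carry H/ACA box snoRNAs. SNHG8 (chr4:118278762-118279823, plus strand), the host of SNORA24, measured 32.8 and 30.3 scaled FPKM in miR-28CT and 11.8 and 12.1 in miR-28BIO. It had the closest replicates of the 10 hosts, and its miR-28BIO libraries were both low. Its log2 difference was -1.40 ± 0.42 (SE, limma), -1.47 within replicate 1 and -1.32 within replicate 2.

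SNHG7 (chr9:136724594-136728184, minus strand), which carries SNORA17A and SNORA17B, measured 9.33 and 57.2 scaled FPKM in miR-28CT and 3.72 and 26.0 in miR-28BIO. SNHG15 (chr7:44983028-44986660, minus strand), the host of SNORA9, measured 11.3 and 67.1 scaled FPKM in miR-28CT and 5.55 and 25.8 in miR-28BIO. In both genes the replicate 2 libraries were high, the replicate 1 libraries low, and the arms overlapped. The log2 difference of SNHG7 was -1.22 ± 1.39 (SE, limma), with -1.30 within replicate 1 and -1.13 within replicate 2. It was 0.11 without miR-28CT replicate 2 and 0.18 without miR-28BIO replicate 1. The log2 difference of SNHG15 was -1.19 ± 1.25 (SE, limma), with -1.01 and -1.37 within the replicates and 0.11 without miR-28CT replicate 2.

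SNHG12 (chr1:28578538-28581854, minus strand) carries 3 H/ACA box snoRNAs and SNORD99, a C/D box snoRNA. It measured 5.35 and 22.2 scaled FPKM in miR-28CT and 8.04 and 9.39 in miR-28BIO. The controls were both the lowest and the highest library, and the direction differed between replicates, with a log2 difference of 0.58 within replicate 1 and -1.23 within replicate 2. The difference over all libraries was -0.33 ± 0.82 (SE, limma), and 0.71 without miR-28CT replicate 2.

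Within both replicate numbers, 8 of the 10 hosts were lower in miR-28BIO, as were 39.7% of all genes, and SNHG16 was higher, as were 30.3% of all genes. A difference of at least 2-fold in both was present in 4 hosts, ZFAS1, SNHG7, SNHG8 and SNHG15, and in 3.64% of all genes. The most abundant record of ZFAS1 alone was 1.66-fold lower within replicate 1, so ZFAS1 is counted only through its summed records. Since the names were put forward for the difference between the arms, nothing is read from these counts. In both arms, 7 of the 10 hosts were higher in replicate 2 than in replicate 1, and the exceptions were ZFAS1, SNHG6 and SNHG8. Averaged over the arms, replicate 2 minus replicate 1 had a log2 median of 0.87 in the hosts and 0.030 in all genes tested. It was 1.36 in genes whose most abundant transcript had 200 to 700 bases and 0.75 in those of 700 to 1200. These classes hold 5 and 4 of the hosts.

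**Figure D2:**
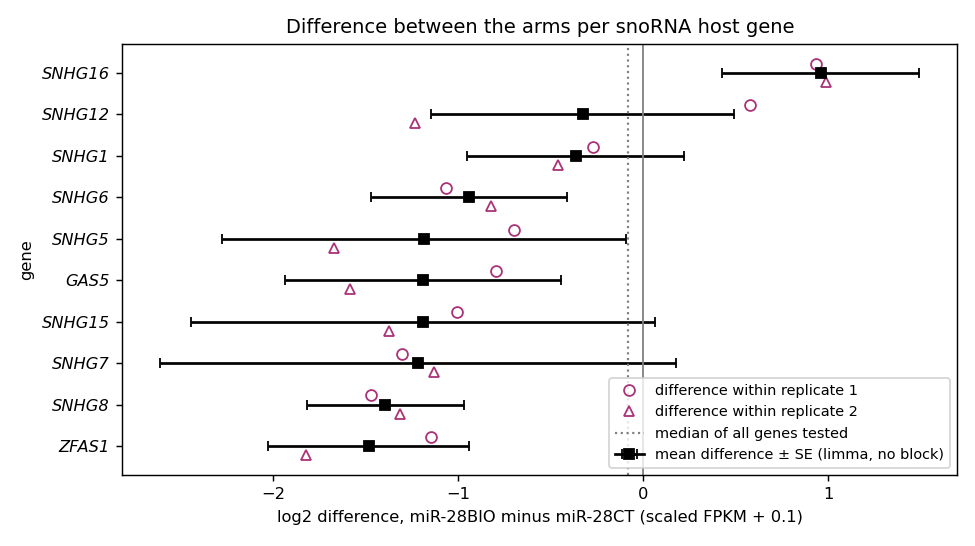
Log2 difference between the arms (miR-28BIO minus miR-28CT, scaled FPKM + 0.1) of each host; squares with bars are the limma estimate ± SE, open circles and triangles the differences within replicates 1 and 2, and the dotted line the median of all genes tested. All hosts but SNHG16 have an estimate below 0, and SNHG12 is the one host whose replicates lie on opposite sides of 0.

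Several RefSeq transcripts were deposited for 4 hosts, and the assignment of reads among them changed between libraries. Of the 21 records, 10 were above 0 in every library, 5 were listed at 0 in every library and 6 were at 0 in some. In SNHG16, the 2435-base record NR_038111 measured 34.4 and 37.4 FPKM in the controls, and 0 and 94.9 in the tagged arm. The 2439-base record NR_038110 was listed at 0 in both controls and at 65.2 and 0 FPKM in the tagged arm. The whole of SNHG16 was thus assigned to one record in 3 libraries and to the other in miR-28BIO replicate 1, and the gene sum was used for the comparison.

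In ZFAS1, the 502-base record NR_036659 measured 104.9, 105.9, 62.5 and 49.8 FPKM (controls first), and the arms did not overlap. The 687-base record NR_003605 measured 34.7 and 32.0 FPKM in miR-28CT and was listed at 0 in both miR-28BIO libraries. It passed the filter through the controls alone, and its spread in miR-28BIO is 0 because both values are the pseudocount, so no test of it is given.

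In SNHG8, the 274-base record NR_034011 measured 31.8, 18.1, 11.7 and 8.98 FPKM and followed the gene sum. The other SNHG8 records, NR_034010 and NR_003584, were each at 0 in part of the libraries, NR_003584 in all but miR-28BIO replicate 2. In SNHG7, NR_024542 measured 4.07, 44.7, 0.700 and 24.9 FPKM, and NR_024543 measured 4.92, 0, 2.57 and 0. Of the 52 values above 0 of the hosts' transcripts, 11 lay outside the interval that Cufflinks gave with them, among them both replicate 2 values of NR_024542 and of SNHG15, 3 of the 4 values of SNHG5 and all 4 of SNHG1. For NR_024542 in miR-28CT replicate 2 the interval was 11.5 to 16.9 FPKM, so the levels of these transcripts and their gaps between replicates are uncertain. The SNHG7 reads went to NR_024543 in part in the replicate 1 libraries of both arms and not in replicate 2. Of the 16 transcripts of the hosts that were tested, 0 were called, as were 0% of all transcripts, and 6 had both miR-28BIO libraries below both controls, beside 12% of all transcripts.

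**Figure D3:**
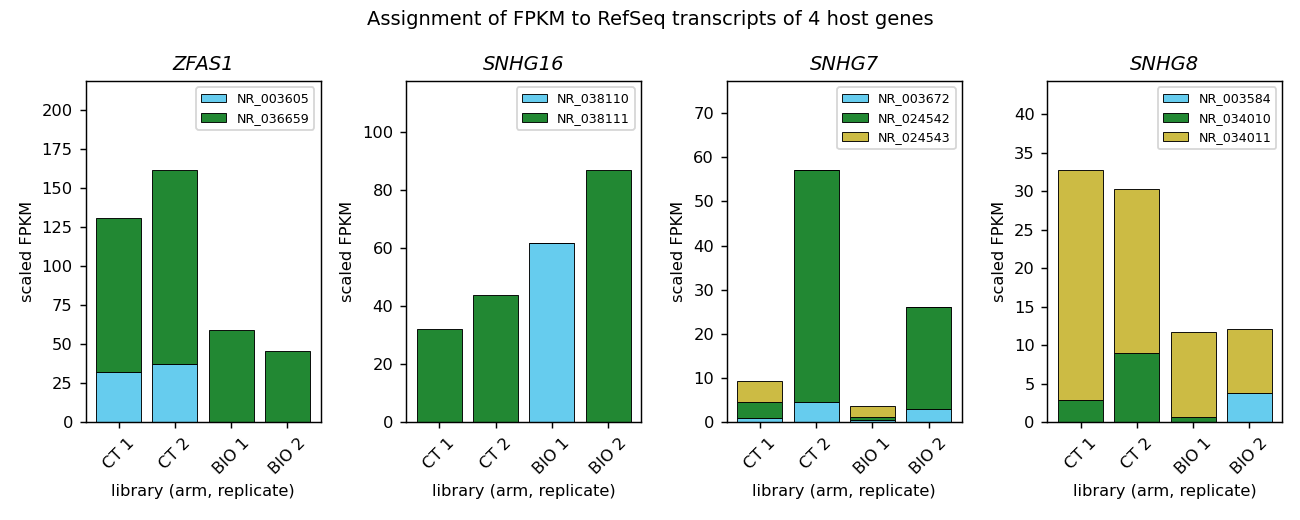
Scaled FPKM of the RefSeq transcripts of the 4 hosts with more than 1 record, stacked per library (records at 0 in every library are not drawn). The bar of SNHG16 changes record in miR-28BIO replicate 1, and NR_003605 of ZFAS1 appears in the miR-28CT libraries only.

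The introns of the hosts hold 35 snoRNA records of 43 to 134 bases, 28 of the C/D box and 7 of the H/ACA box kind. They are near or below the usual fragment length of such libraries, so their FPKM are uncertain. Of these, 7 were listed at 0 in all 4 libraries and 7 were above 0 in all, with 15 and 24 above 0 in miR-28CT and 11 and 24 in miR-28BIO replicates 1 and 2. The number detected thus differed more between replicate numbers than between arms.

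Both miR-28BIO libraries lay below both controls for 3 of the 35 snoRNAs and above them for 1, beside 12.7% and 12.3% of all genes tested. Those shares are of genes that passed the filter, whereas the 35 records were not filtered. The 7 records at 0 in all libraries could only overlap, so the shares are not alike. SNORD12C of ZFAS1 measured 171.3 and 242.1 scaled FPKM in miR-28CT and was listed at 0 in both miR-28BIO libraries. It passed the filter through the controls alone, and its spread in miR-28BIO is 0 because both values are the pseudocount. Its limma adjusted p of 0.0415 is therefore no support for a difference, and it depends on the settings. The adjusted p ranged from 0.00950 to 0.507 and was below 0.05 in 7 of 15 settings, the reported one included, and in none with a library left out. It was 1 of 3 genes called in the whole table, beside SNORD57 and SNORD58A, which lie in other hosts and were also listed at 0 in both miR-28BIO libraries. The neighbour SNORD12 in the same host measured 68.3 and 232.3 scaled FPKM in miR-28CT and 94.9 and 408.3 in miR-28BIO, so the snoRNAs of ZFAS1 did not share a direction.

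SNORD76 of GAS5 was the snoRNA above the controls in both tagged libraries, at 475.4 and 195.2 scaled FPKM in miR-28CT and 825.7 and 617.9 in miR-28BIO, whereas GAS5 itself lay below them. SNORD1C of SNHG16 measured 35.6 and 34.7 scaled FPKM in miR-28CT and was listed at 0 in miR-28BIO, opposite to its host. SNORA16A of SNHG12 measured 18.8 and 78.6 in miR-28CT and was also listed at 0 in miR-28BIO. Of the other snoRNAs of GAS5, SNORD47 and SNORD80 were lower in miR-28BIO within both replicates, SNORD47 at 482.2 and 2420 scaled FPKM in miR-28CT and 231.9 and 1091 in miR-28BIO. The rest were at 0 in part or all of the libraries. SNORD1A and SNORD1B of SNHG16 were listed at 0 in every library.

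Of the genes whose spans overlap a host on the opposite strand, DIPK1B shares 125 bases with SNHG7 and measured 1.74, 6.17, 0.766 and 5.88 FPKM, with the controls given first. Like SNHG7, it was high in replicate 2 of both arms. ZNFX1, which shares 42 bases with ZFAS1, measured 10.9, 5.29, 11.4 and 6.27 FPKM and did not follow ZFAS1. GAS5-AS1 was listed at 0 in all libraries. The library kit marks strand, but the strand setting of the counting is not given in the sources used here, so reads of overlapping genes may have been shared.

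The other genes of the snoRNA pathway were taken as lists. Over all genes tested the median log2 difference was -0.08, and over the 10 hosts it was -1.19. Over the 2706 genes with a mean of at least 10 scaled FPKM, a level that every host exceeded, it was -0.35. Without miR-28CT replicate 2 the median of the hosts was 0.034, with 4 of 10 below 0. Among 23 other noncoding hosts, 15 had a record and 10 were tested, with a median of -0.18 (-0.79 to 0.45 with 1 library left out, 0.27 without miR-28CT replicate 2 and 0.45 without miR-28BIO replicate 1), 1 with both miR-28BIO libraries above and 1 with both below the controls, beside 12.3% and 12.7% of all genes. SNHG29, the most abundant of them, measured 41.2 and 132.6 scaled FPKM in miR-28CT and 21.5 and 73.4 in miR-28BIO, so replicate 2 was high in both arms. SNHG9 measured 3.03 and 86.2 in miR-28CT and 0 and 92.3 in miR-28BIO, and DANCR 10.0 and 37.3 against 7.87 and 27.1, with the same order of replicates.

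Of 40 coding hosts, most of them ribosomal protein or translation factor genes, 39 were tested, with a median log2 difference of -0.86, and 34 had an estimate below 0, as had 6326 of all 11311 genes. Both miR-28BIO libraries lay below the controls for 16 and above for 1, beside 12.7% and 12.3% of all genes. Among the 2706 genes with a mean of at least 10 scaled FPKM, they lay below for 523. RPL30 measured 1105 and 834 scaled FPKM in miR-28CT and 500.3 and 274.2 in miR-28BIO. RACK1, a protein of the small ribosomal subunit, measured 359.4 and 739.2 against 186.2 and 426.9, with overlapping arms, and RPL23 measured 301.5 and 562.3 against 118.4 and 229.8, without overlap.

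The 8 core proteins of the snoRNPs, of which NOP56 and DKC1 are also in the list of coding hosts, were all tested and had a median log2 difference of -0.41 (-0.75 without miR-28BIO replicate 1 and -0.059 without miR-28BIO replicate 2), 3 with both miR-28BIO libraries below the controls and 1 above, where the shares of all genes were 12.7% and 12.3%. FBL (fibrillarin), the methyltransferase of C/D box snoRNPs, measured 38.9 and 27.2 scaled FPKM in miR-28CT and 21.4 and 11.5 in miR-28BIO. NOP10, an H/ACA protein with a short transcript, was the one above, at 150.9 and 398.1 against 1418 and 3615. Its limma adjusted p was 1.00, and 0.0541 with the replicate block. NHP2, its partner in the complex, measured 12.2 and 99.4 in miR-28CT and 4.48 and 40.03 in miR-28BIO, with overlapping arms.

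The NMD factors, of which 14 of 16 were tested, had a median of -0.07, close to that of all genes, with 3 below and 2 above the controls, beside the same shares of all genes. EIF4A3 of the exon junction complex measured 11.6 and 19.0 scaled FPKM in miR-28CT and 10.2 and 16.2 in miR-28BIO. SMG5 measured 12.5 and 14.9 against 9.31 and 11.2, and RBM8A 15.7 and 8.99 against 11.5 and 7.80. In each of the 4 lists, 0 genes were called by limma, where 0.0265% of all genes were called lower and 0% higher.

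**Figure D4:**
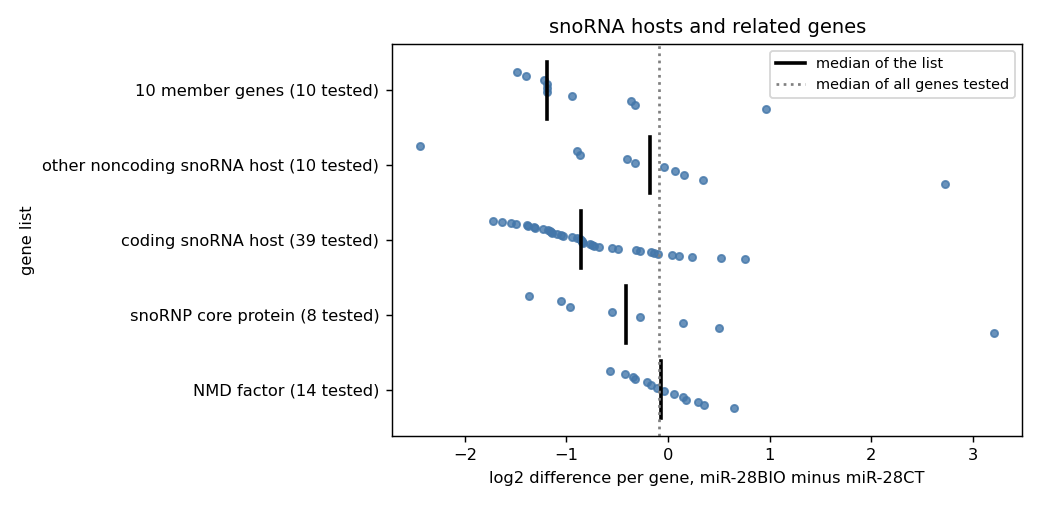
Log2 difference between the arms (miR-28BIO minus miR-28CT) of each tested gene of the 10 hosts and of the 4 lists; solid lines are list medians and the dotted line is the median of all genes tested, -0.08. The hosts have a median of -1.19 (0.034 without miR-28CT replicate 2), the coding hosts one of -0.86, and the NMD factors one of -0.07.

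Transcript length moved with the difference between the arms among the tested genes of 200 bases or more. Genes whose most abundant transcript had 200 to 700 bases, 362 in number, had a median log2 difference of -1.03, and both miR-28BIO libraries lay below the controls in 29.0% of them. ZFAS1, GAS5, SNHG5, SNHG6 and SNHG8 belong to this class. Genes of 700 to 1200 bases, with SNHG1, SNHG7, SNHG12 and SNHG15, had a median of -0.63. Genes of 2400 to 4800 bases, with SNHG16, had a median of -0.03, and those of 4800 bases or more a median of 0.17. Replicate 2 exceeded replicate 1 by a median of 1.36 on the log2 scale in the shortest of these classes and was below it by a median of -0.40 in the longest. The part of length in the differences of the hosts was not tested.

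**Figure D5:**
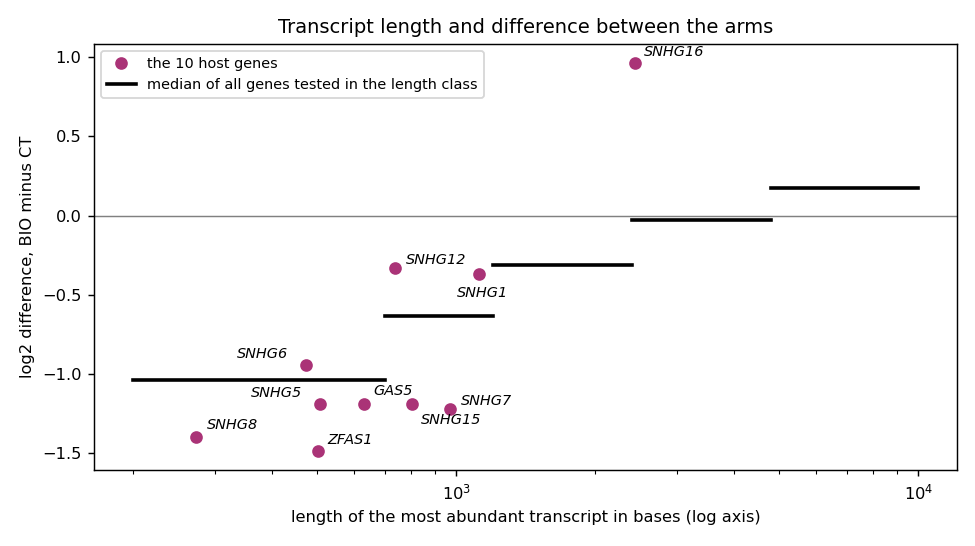
Log2 difference between the arms (miR-28BIO minus miR-28CT) of the 10 hosts against the length of their most abundant transcript in bases (log axis); horizontal lines are medians of the genes tested in 5 length classes from 200 bases, the last of which is open above 4800 bases and drawn with an arbitrary end. The 5 shortest hosts lie between -1.48 and -0.95, around the class median of -1.03, and SNHG16, the longest, lies above its class median of -0.03.

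Because the tagged duplex carried the miR-28-5p seed, its match was searched in the GENCODE 44 transcripts that lie within the deposited spans of the hosts. The letters AGCTCCT, the match to nucleotides 2 to 8, were present in 7 of 229 transcripts (3.06%), on the transcribed strand, beside 12.8% of 53424 other long noncoding transcripts of the same range of length. They were in 1 of 10 transcripts of ZFAS1, 4 of 87 of GAS5 and 2 of 8 of SNHG15. None of 15 SNHG16 transcripts held them. The 229 transcripts are variants of the 10 hosts, 87 of them of GAS5 and 74 of SNHG1. They are not independent, so no lack or excess of the match is read from these shares. Over all GENCODE transcripts of these genes, those that reach beyond the deposited spans included, the match was in 4 of 14 of ZFAS1 and 4 of 14 of SNHG15. It was also in 6 of 89 of SNHG5, 1 of 15 of SNHG8 and 4 of 91 of GAS5. The 4 sequence contexts found within the spans are shown with 8 bases on each side and the match in capitals, read from hg38. GAS5 has the unspliced context in 3 transcripts and a spliced one, across an exon junction, in 1.
ZFAS1 (chr20:49280416-49280422, plus strand): gcttgagcAGCTCCTttgtccca
GAS5 (chr1:173865543-173865549, minus strand): tgtattccAGCTCCTggtaacgt
GAS5 spliced, longer match: tggcacacAGCTCCTggtaacgt
SNHG15 (chr7:44984495-44984501, minus strand): agcagcacAGCTCCTgtgttcct

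The shorter match GCTCCT, to nucleotides 2 to 7 and contained in the longer one, was in 125 of the 229 transcripts (54.6%), beside 33.7% of the others. GAS5 held it in 82 of 87 transcripts and SNHG1 in 37 of 74, and the annotated variants of a gene share most of their exons. In 76 GAS5 transcripts the 6 letters stand across 1 exon junction, in the sequence below.
GAS5 spliced, shorter match: atggttctGCTCCTggtaacgt

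SNHG5, SNHG6, SNHG7, SNHG8 and SNHG16 held neither match in their transcripts within the deposited spans. A match is a description of letters and not a site of binding.

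The genes with the profile most like the hosts were found from the root mean square distance of the centred log2 profile over the 4 libraries to the median profile of the hosts. They were POLR3K at 0.0359, SHISA4 at 0.0450, AKT1S1 at 0.0489, VAT1 at 0.0537 and TUBG1 at 0.0546. TUBG1, which encodes gamma-tubulin, measured 13.1 and 32.8 scaled FPKM in miR-28CT and 10.3 and 17.3 in miR-28BIO, high in miR-28CT replicate 2. The hosts themselves lay at 0.282 (GAS5) to 0.904 (SNHG7) from their own median profile, so no single host was as close to it.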

How the data were processed

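The 2 arms of 2 pull out libraries from DU-145 cells were compared, grouped by the sample labels. According to the methods and the submitters' processing notes, reads of 50 bases from a stranded total RNA kit were checked with FastQC 0.10.1, aligned to hg38 with TopHat2 2.0.9 and quantified with Cufflinks 2.1.1. For each library the authors deposited 1 FPKM per RefSeq transcript and its Cufflinks interval, and the deposited coverage per transcript (mean read coverage) served here only to estimate depth. Read counts cannot be recovered, so no count test was run and no interval for counting error is given.

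Only transcripts marked OK in every library (52530) were kept, scaled by median-of-ratios factors from the 11650 above 0 in all, and summed by gene name. The test used features whose scaled FPKM averaged 0.5 or more, on log2(scaled FPKM + 0.1), in limma 3.58.1 (R 4.3.3; lmFit, eBayes with a trend, no block) with Benjamini-Hochberg adjustment at 0.05. Fold changes on this scale understate those of low genes. The p-values measure only the spread between these samples. Gene names were matched through RefSeq (GRCh38). Same-numbered libraries were treated as pairs for the block since their labels carry the same numbers and the methods speak of biological replicates, and their deviations from the arm means correlated across 11311 genes (r = 0.623). With 2 pairs from 1 cell line the data cannot settle the pairing.

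The members and the lists were chosen with earlier results of these data known. The text names the 10 hosts, the transcripts with the highest mean of a host or with another order of the arms, the 3 most abundant genes of each pathway list and any called gene, and the 5 nearest profiles. Alternatives were the pseudocount, the filter, the scaling, the Cufflinks status, the trend, the block, the most abundant transcript in place of the sum, and leaving out each library. Start windows and seed matches were read with pysam 0.24.0 from hg38, RefSeq and GENCODE 44. The mature miR-28-5p sequence is not printed, and 1 list of cell markers is not reported here.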

Additional observations from a re-analysis of the deposited data

How the results depend on the processing

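With 2 libraries per arm, the differences of single hosts rest on single libraries. Without miR-28CT replicate 2, the log2 difference changed sign to 0.023 for SNHG1, 0.045 for SNHG5, 0.11 for SNHG7, 0.71 for SNHG12 and 0.11 for SNHG15, and without miR-28BIO replicate 1 it was 0.18 for SNHG7. Over the 4 libraries left out in turn, these ranged from -0.70 to 0.023 for SNHG1, -2.37 to 0.045 for SNHG5, -2.60 to 0.18 for SNHG7, -1.32 to 0.71 for SNHG12 and -2.44 to 0.11 for SNHG15. With only the most abundant transcript, SNHG16 fell to -3.68, because its reads were assigned to another record in miR-28BIO replicate 1. The other 133 of 140 values of hosts under 14 settings kept their direction, and 0 hosts were called under any. The arms of ZFAS1, GAS5, SNHG6 and SNHG8 (below 0) and of SNHG16 (above 0) do not overlap. Their direction was therefore bound to stay when 1 library was left out, and this supports nothing. GAS5 had values from -1.91 to -0.42.

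Leaving out each library in turn gave a median of the hosts from -1.46 to 0.034 and 4 to 9 hosts below 0, the highest median and the fewest hosts without miR-28CT replicate 2. The medians ranged from -0.79 to 0.45 for other noncoding hosts, from -1.14 to -0.60 for coding hosts, from -0.75 to -0.059 for snoRNP proteins and from -0.25 to 0.000444 for NMD factors. FPKM without scaling moved the median of all genes from -0.08 to 0.08, and the medians to -0.69 for coding hosts, -0.24 for snoRNP proteins and 0.095 for NMD factors. The NMD median was -0.038 with no filter and 0.032 with upper quartile scaling. With the most abundant transcript alone it was -0.27, and that of the snoRNP proteins -0.68. The cause of these shifts was not tested.

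In the whole table, the 3 genes called lower became 0 with a pseudocount of 1, no filter, no trend, the most abundant transcript alone or any library left out. At an unadjusted p under 0.05, 251 genes were higher and 91 lower (limma), and with the replicate block 1158 were higher and 1757 lower. With the block, 22 were called lower and 42 higher at the adjusted threshold, which changed the call of no host.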
